A study of Mus musculus with 27 samples.

Results

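The comparison of Mysm1-deficient with wild-type mouse brain rested on 6 of the 27 arrays of the series: 3 brains labelled homozygous (Mysm1tma1/tm1a) and 3 labelled wild type. They were taken by tissue and genotype label, before any measured value. Total RNA of snap-frozen tissue was labelled with biotin and hybridised to Illumina BeadChips. The 3 brains labelled heterozygous (Mysm1+/tm1a) entered the estimate of the spread between arrays. All mice were on a C57BL/6 background and carried their allele in the germ line, so every cell of a homozygous brain had it. The allele, Mysm1tm1a(KOMP)WTSI, is of the knockout-first type, in which an inserted cassette interrupts the transcript. The series' design text sets animals against each other, so each array was taken as 1 animal; the sources used here do not give age, sex or how the brain was dissected.

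Mysm1 removes ubiquitin from histone H2A, the mark that Polycomb repressive complex 1 places on chromatin. It is best known from blood formation, where its loss in mice depletes lymphocytes and activates p53 in progenitors. The brain holds neurons, several kinds of glia and vascular cells, and its regions differ strongly in their neuronal transcripts, so a bulk brain sample reports both genotype and the piece of tissue that was taken.

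Genotype was tied to the array on which a brain was measured. The homozygous brains shared BeadChip 3 with the heterozygous brains, while the wild-type brains lay on BeadChip 2 with homozygous livers. A difference between homozygous and wild-type brain and a difference between these BeadChips cannot be told apart. The comparison with heterozygous brains was made within BeadChip 3 and is given beside many of the results below; both comparisons use the same homozygous arrays. Mean raw signal per array was between 285.3 and 310.4 in homozygous brains and between 352.6 and 372.8 in wild-type brains. Detection above background (detection p below 0.05) was reached by 43.3% to 43.9% of probes on the homozygous arrays and by 43.6% to 43.9% on the wild-type arrays. After normalisation, homozygous arrays correlated with each other at 0.988 to 0.993 across features and wild-type arrays at 0.986 to 0.994.

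Mysm1 transcript fell in homozygous brain, and it was the 1 feature of 14423 to pass the test between the genotypes (limma, Benjamini-Hochberg adjusted p below 0.05), or 0.00693% of the features. A feature is a named gene, represented by its brightest probe, or a probe with no gene name, detected on at least 3 of the 9 brain arrays. Probe ILMN_3119954 of Mysm1 read 6.41, 6.37 and 6.47 (log2 intensity) in homozygous brains, against 8.28, 8.43 and 8.34 in wild-type brains. All 3 homozygous arrays still detected this probe, so a complete loss of the transcript was not shown. The groups were separated by a gap far wider than the spread within either, with means of 6.42 ± 0.05 in homozygous and 8.35 ± 0.07 in wild-type brains (SD, n = 3 each). The change was -1.93 on the log2 scale with a 95% interval of -2.14 to -1.73 (limma adjusted p = 5.29e-05). Within BeadChip 3 the homozygous brains were lower than the heterozygous ones by -1.26 (limma adjusted p = 0.00242), and Mysm1 was again the 1 feature that passed. Heterozygous brains averaged 7.68 ± 0.13 (SD, n = 3); against wild type, 0 features passed in limma.

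**Figure D1:**
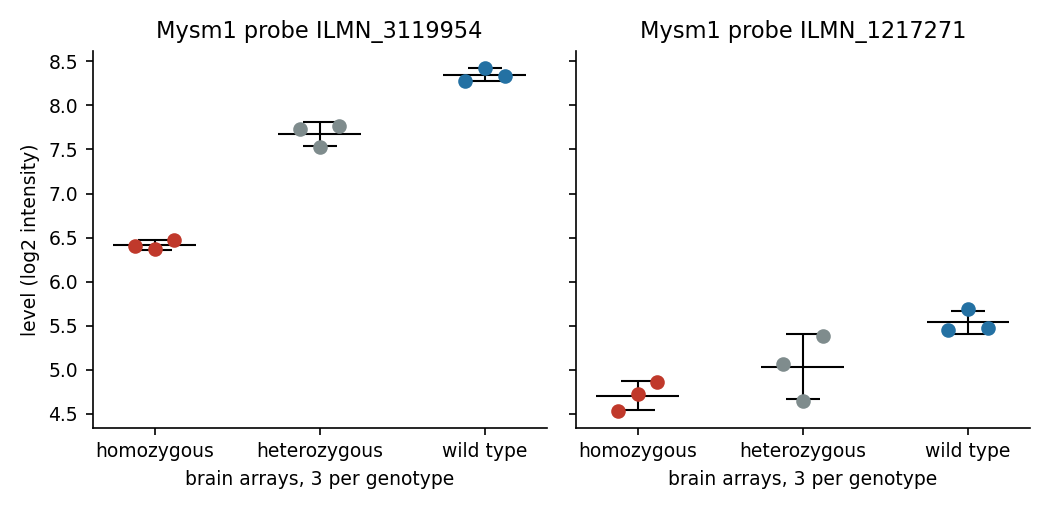
Levels (log2 intensity) of 2 Mysm1 probes on each brain array, with the mean and SD (n = 3) per genotype. On probe ILMN_3119954 the homozygous arrays sit between 6.37 and 6.47, below the heterozygous and the wild-type arrays; on the dimmer probe ILMN_1217271 the homozygous arrays also lie below the wild-type ones.

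A second Mysm1 probe, ILMN_1217271, pointed the same way at a lower level. It read 4.53, 4.72 and 4.86 in homozygous brains and was not well above background on any of them, against 5.45, 5.69 and 5.48 in wild-type brains, where all 3 arrays detected it. Mysm1 on this probe was at least 1.59-fold lower in homozygous brain, taking the lowest detected signal as the floor. The remaining Mysm1 probes, ILMN_2717487 and ILMN_3044588, were not well above background on any of the 6 arrays and gave no measurement. Where these probes bind relative to the inserted cassette was not analysed here.

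Beyond Mysm1, the data bounded how large a change in brain could have gone unseen for transcripts well above background. The 95% interval of the change lay inside 2-fold (both bounds within 1 on the log2 scale) for 14108 features, 97.8% of those tested, and inside 1.5-fold for 12219, or 84.7%. The median half-width of the interval was 0.27 on the log2 scale, a factor of 1.20. Bounds were tighter for bright transcripts: the median half-width was 0.21 in the brightest 20% of features and 0.35 in the dimmest 20%. That dimmest 20% had mean levels of 4.57 to 5.36, and 98.3% of its intervals lay inside 2-fold. Undetected probes read little lower, such as Mysm1 probe ILMN_2717487 at 4.35 in homozygous and 4.32 in wild-type brains. Even a full loss of so dim a transcript could read as less than 2-fold, so the count does not bound it. The median change over all features was 0.00, and the 5th to 95th percentiles of the change ran from -0.25 to 0.26. An unadjusted p below 0.05 was reached by 757 features (5.25%), 2.53% on the higher side and 2.72% on the lower side in homozygous brain. The homozygous and wild-type arrays did not overlap for 1543 features (10.7%), 787 higher (5.46%) and 756 lower (5.24%). The change was above 0 for 7317 features (50.7%). A change of 1.5-fold or more was seen for 84 features (0.582%) and of 2-fold or more for 9 (0.0624%).

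**Figure D2:**
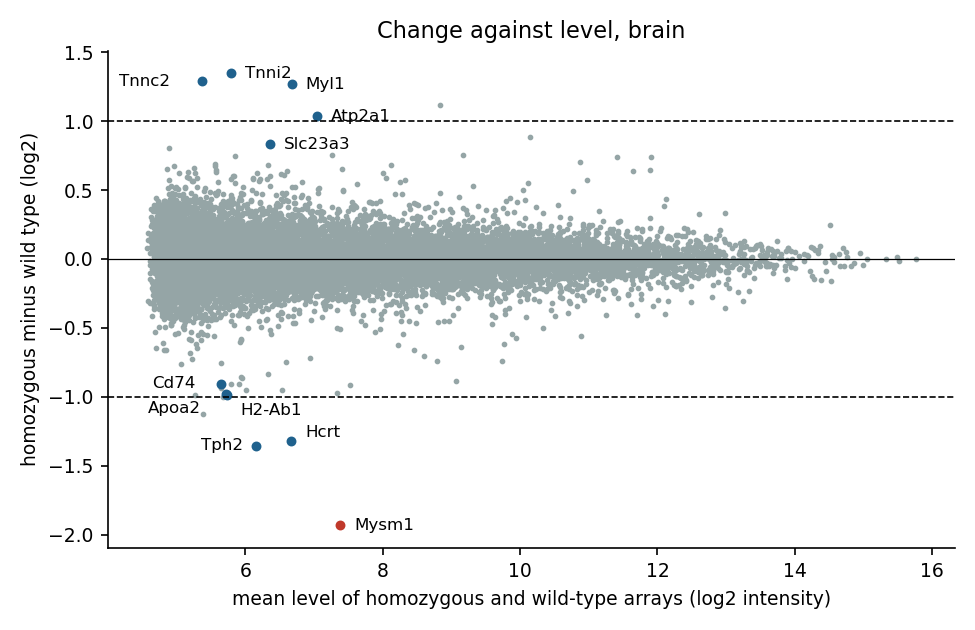
Change in homozygous against wild-type brain (log2, y axis) for all 14423 features against their mean level over both groups (log2 intensity, x axis); dashed lines mark 2-fold. Mysm1 (red) stands at -1.93, and the other named points are genes described in the text, none of which passed the test.

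The intervals, read per cell class, bounded most markers of the main brain cells inside 2-fold. Marker lists of 16 cell classes had 224 measured genes, of which 201 (89.7%) had an interval inside 2-fold, against 97.8% of all features. List counts here and below include dim markers, for which an interval inside 2-fold does not bound a loss. Microglial Ctss, for example, averaged 5.23 in homozygous and 4.96 in wild-type brains. Beyond Mysm1 no feature passed the test, so no list member did. For each class the median change over its measured markers was taken beside the median of 0.00 over all features; 13 of the 16 medians lay within 0.2 of 0. In bulk tissue, fewer cells of a type and less RNA per cell cannot be told apart.

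General neuronal markers were tightly bounded. All 22 measured markers had intervals inside 2-fold, 21 of them inside 1.5-fold, with a median change of -0.04 and changes of -0.18 to 0.16. Syp, a synaptic vesicle protein, read 13.94, 13.69 and 13.76 in homozygous brains, against 13.85, 13.84 and 13.68 in wild-type brains, a change of 0.01 with an interval of -0.21 to 0.23. Eno2, the neuronal enolase, changed by 0.06 (-0.10 to 0.22) and Rtn1, a reticulon of the endoplasmic reticulum, by 0.02 (-0.13 to 0.18). The largest changes of the list were those of Ina, a neurofilament subunit (-0.18), and Stx1a, a syntaxin of the release machinery (0.16), and both intervals included 0. Array means of the list lay between -0.04 and 0.02 in homozygous and between -0.05 and 0.05 in wild-type brains, relative to the mean of the 6 arrays. The 2 Snap25 probes, and the Nefl and Tubb3 probes, did not meet the detection rule although other neuronal markers were bright, so an undetected probe on this platform does not show that a transcript is missing; these genes were chosen after their values were seen.

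Markers of excitatory neurons and of GABAergic interneurons had median changes of -0.02 over 12 genes and 0.09 over 16 genes. Of these, 11 and 14 had intervals inside 2-fold. Nrgn, a calmodulin-binding protein of forebrain excitatory neurons, changed by -0.02 (-0.46 to 0.42), and Sst, the somatostatin precursor, by 0.02 (-0.19 to 0.23). Slc32a1, which loads GABA into vesicles, changed by 0.07 (-0.34 to 0.48). The genes left outside 2-fold are known for regional expression. Slc17a6, the glutamate transporter of thalamic and midbrain neurons, read 9.83, 11.66 and 10.33 in homozygous brains, against 11.98, 11.59 and 9.93 in wild-type brains. Calb2, or calretinin, read 9.68, 10.83 and 9.74 against 11.16, 11.09 and 9.50. Dlx6, the remaining gene outside 2-fold, went the other way. It read 6.39, 5.14 and 6.49 against 5.01, 5.31 and 6.36, a change of 0.44 (-0.75 to 1.64). The groups overlapped for all of these genes, and each had high and low animals within both genotypes.

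Astrocyte markers had a median change of -0.10, and 20 of 21 intervals lay inside 2-fold. Slc1a3, a glutamate transporter, read 13.34, 13.41 and 13.36 in homozygous brains, against 13.32, 13.38 and 13.38 in wild-type brains, a change of 0.01 (-0.16 to 0.17). Aldoc, a glycolytic aldolase, changed by -0.09 (-0.35 to 0.16) and Gja1, the gap junction protein connexin 43, by -0.10 (-0.36 to 0.16). S100b, a calcium-binding protein, had the largest change, -0.34 (-0.62 to -0.06), with groups that did not overlap. Gfap, the filament protein that rises in reactive astrocytes, was the marker with a bound outside 2-fold, at -0.28 (-1.03 to 0.47); it read 9.17, 10.03 and 9.73 in homozygous and 10.30, 10.20 and 9.27 in wild-type brains. The 8 measured genes of glial reactivity had a median change of -0.06.

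Oligodendrocyte markers, the genes of myelin and its lipids, had the lowest median of the brain's own cell classes, -0.27 over 23 genes. All but 2 changes were negative, 5 genes reached an unadjusted p below 0.05 on the lower side (2.72% of all features did) and 7 did not overlap between the groups on the lower side (5.24% of all features). The bounds stayed inside 2-fold for 22 genes, but inside 1.5-fold for 9. Mbp, the main myelin basic protein, read 14.27, 14.61 and 14.47 in homozygous brains, against 14.68, 14.68 and 14.47 in wild-type brains, a change of -0.16 (-0.41 to 0.09). Mag, a myelin adhesion protein, changed by -0.40 (-0.79 to -0.01) and Ugt8a, which makes the myelin lipid galactosylceramide, by -0.47 (-0.84 to -0.09). Ppp1r14a, a phosphatase inhibitor, had the largest change, -0.50 (-0.86 to -0.14; limma adjusted p above the threshold, as for all of these). The list's array means were -0.36, 0.10 and -0.13 in homozygous brains, against 0.20, 0.22 and -0.03 in wild-type brains. They overlapped. Striatal list means on the same arrays were 0.85, -0.89 and 0.81 in homozygous brains, against -1.22, -0.60 and 1.05 in wild-type brains. A link between the 2 lists was not tested.

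The oligodendrocyte list had a median of -0.12 against the heterozygous brains of the same BeadChip, and heterozygous brains were at -0.16 against wild type. With the striatal marker level of each array added to the fit as a covariate, a setting chosen after seeing the data, the median was -0.20 with 23 of 23 intervals inside 2-fold. Precursor markers of the same lineage had a median of -0.16 over 12 genes, all inside 2-fold. On the lower side 5 of the 12 reached an unadjusted p below 0.05 (2.72% of all features did). Groups did not overlap on the lower side for 3 (5.24% of all features), and 4 of the 12 changes were positive. Among the precursor markers Olig1, a lineage transcription factor, changed by -0.30 (-0.56 to -0.04) and Sox10 by -0.39 (-0.78 to -0.01). Gpr17, a receptor of maturing precursors, changed by -0.40 (-0.70 to -0.10). Against heterozygous brains the precursor median was -0.06.

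Microglial and endothelial markers were bounded inside 2-fold without exception among those measured. For microglia, the brain's resident macrophages, all 22 intervals lay inside 2-fold and the median change was 0.03. Laptm5, a lysosomal protein of blood-derived cells, changed by -0.06 (-0.28 to 0.16), Lgmn, a lysosomal protease, by -0.03 (-0.29 to 0.23), and Tyrobp, a signalling adaptor, by 0.27 (-0.04 to 0.58). For endothelium all 22 intervals lay inside 1.5-fold, with a median of 0.02. Flt1, a receptor for VEGF, read 10.56, 10.59 and 10.63 in homozygous brains, against 10.59, 10.37 and 10.65 in wild-type brains. Eng, or endoglin, had the largest endothelial change, 0.28 (0.03 to 0.54). Mural cell markers had a median of -0.03, with 12 of 12 inside 2-fold, and Acta2, smooth muscle actin, at -0.29 (-0.59 to 0.01).

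Ventricular and meningeal classes were less tightly bounded. Ependymal markers had a median of 0.10 and 10 of 10 intervals inside 2-fold, with Foxj1, the regulator of motile cilia, at 0.35 (-0.13 to 0.82). Against the heterozygous brains of the same BeadChip the ependymal median was 0.42. The ependymal array means were 0.01, -0.11 and 0.27 in homozygous brains, against -0.34, -0.26 and -0.51 in heterozygous brains, without overlap, and -0.08, 0.11 and -0.19 in wild-type brains, with overlap. Choroid plexus markers had a median of 0.13 but 12 of 21 intervals inside 2-fold, and a median of 0.55 against heterozygous brains. Ttr, the thyroid hormone carrier made by the choroid plexus, read 13.21, 13.40 and 13.55 in homozygous brains, against 13.12, 13.51 and 13.32 in wild-type brains, and its interval was nevertheless -2.42 to 2.56. A heterozygous brain read 8.11 for Ttr, against 12.96 and 13.26 in the other two, and entered the spread. In a fit of the 6 homozygous and wild-type arrays alone, 21 of 21 choroid plexus intervals lay inside 2-fold. Meningeal fibroblast markers had a median of -0.08 and 11 of 13 intervals inside 2-fold; Dcn, the matrix proteoglycan decorin, was outside at -0.58 (-1.90 to 0.75).

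Red cell transcripts varied between brains of both genotypes. Their median change was 0.69, but none of the 4 measured genes was bounded inside 2-fold. Hbb-bs, a beta globin, read 11.80, 11.86 and 13.17 in homozygous brains, against 10.22, 12.41 and 11.99 in wild-type brains, so the groups overlapped. Against heterozygous brains, which read 8.63, 10.36 and 11.46 for Hbb-bs, the median of the list was 2.11. Of 16 leukocyte markers on the array 2 were measured, Cd3e and S100a8, both below 6.0 on every array of the 2 genotypes, and the neutrophil marker Mpo and the B cell marker Ms4a1 met the detection criterion on 0 of the 9 brain arrays (both genes chosen after their values were seen). Markers of neurogenic and dividing cells had a median of -0.01, with 8 of 9 inside 2-fold.

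**Figure D3:**
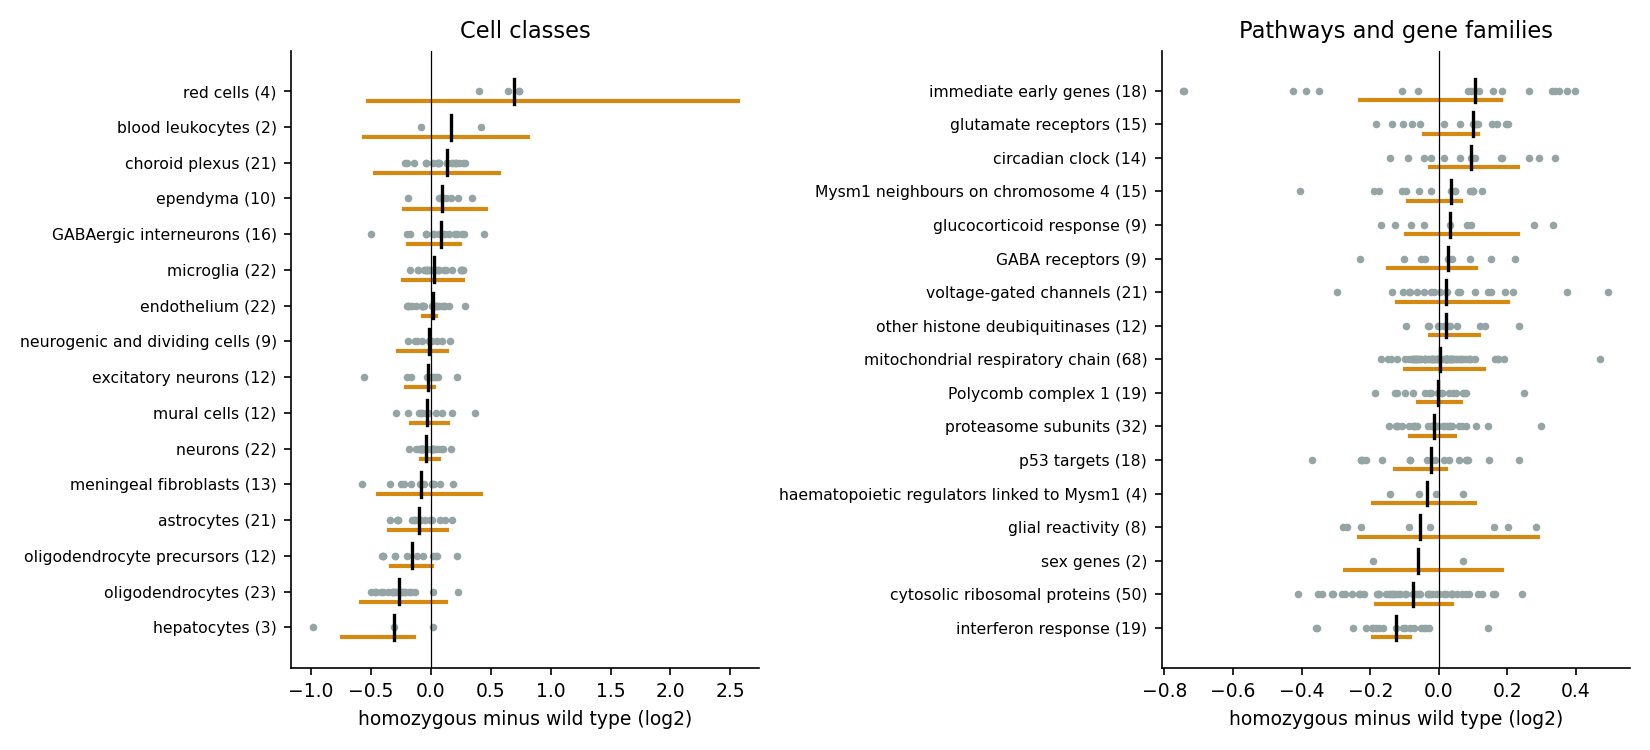
Changes in homozygous against wild-type brain (log2) of each measured member (grey points), their median (black) and the range of the 9 differences between a homozygous and a wild-type array mean (orange), for cell class lists (left) and for pathway and family lists (right), with the number of measured genes in brackets. Medians of neurons, microglia and endothelium lie within 0.05 of 0, and red cells show the widest range between arrays.

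Pathways near the known function of Mysm1 were bounded as tightly as the rest. Over 17 pathway and family lists, 328 of 333 measured genes (98.5%) had an interval inside 2-fold, and all 17 medians lay within 0.2 of 0. Members of Polycomb complex 1, which writes the mark that Mysm1 removes, had a median change of -0.00 with 19 of 19 inside 2-fold; Yaf2, an adaptor of the complex, was at -0.04 (-0.24 to 0.16) and Pcgf1 at -0.03 (-0.22 to 0.16). The other histone deubiquitinases had a median of 0.02, with 12 of 12 inside 1.5-fold. Usp22, the deubiquitinase of the SAGA complex, changed by 0.05 (-0.15 to 0.26), with overlapping groups. Targets of p53 had a median of -0.02, with 18 of 18 inside 2-fold. Cdkn1a, the cell cycle inhibitor p21, read 9.35, 8.63 and 9.04 against 8.58, 8.72 and 9.02, a change of 0.23 (-0.19 to 0.66), and Tnfrsf10b, a death receptor, was at -0.37 (-0.63 to -0.11). Of 8 haematopoietic regulators linked to Mysm1, 4 were measured in brain, with a median of -0.03; Gata2 was at -0.14 (-0.61 to 0.32). The 15 measured neighbours of Mysm1 on chromosome 4 had a median of 0.03, all inside 2-fold.

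Basic cellular and synaptic families showed similar bounds. The circadian clock had a median of 0.09 with 14 of 14 inside 2-fold, the glucocorticoid response 0.03 with 9 of 9, and voltage-gated channels 0.02 with 19 of 21. The mitochondrial respiratory chain had 68 of 68 genes inside 2-fold and a median of 0.00, and proteasome subunits had 32 of 32 and -0.01. Glutamate receptors had a median of 0.10, with 15 of 15 inside 2-fold and Gria2, an AMPA receptor subunit, at 0.20 (-0.04 to 0.44). GABA receptors had a median of 0.03, with 9 of 9 inside. Cytosolic ribosomal proteins had a median of -0.08; 50 of 50 were inside 2-fold, 11 reached an unadjusted p below 0.05 on the lower side (2.72% of all features did) and 14 did not overlap on the lower side (5.24% of all features). Rps15 read 11.54, 11.42 and 11.51 in homozygous brains, against 11.85, 11.88 and 11.98 in wild-type brains, a change of -0.41 (-0.60 to -0.22; limma adjusted p = 0.482). Rps4x changed by -0.35 (-0.54 to -0.17; limma adjusted p = 0.627). Against heterozygous brains the list's median was -0.07. Rplp1, a brighter member, was at -0.03 (-0.21 to 0.14).

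Genes of the interferon response had a median of -0.12, and 18 of 19 changes were negative. On the lower side 4 genes reached an unadjusted p below 0.05 (2.72% of all features did) and 4 did not overlap (5.24% of all features). The list's array means were -0.11, -0.03 and -0.07 in homozygous brains, against 0.06, 0.09 and 0.06 in wild-type brains, which did not overlap. This was so for 2 of the 43 lists (4.65%), the other being hepatocyte markers, of which 3 genes were measured. Tap1, the peptide transporter of antigen presentation, was not well above background on any homozygous array and was at least 1.10-fold lower there (limma adjusted p = 0.789), while B2m, the light chain of MHC class I, was at -0.04 (-0.26 to 0.17). Against heterozygous brains the median of the list was -0.13. Immediate early genes, which neurons induce with activity, went both ways around a median of 0.11. Of 18 measured, 4 reached an unadjusted p below 0.05 on the lower side and 1 on the higher side. Over all features these shares were 2.72% and 2.53%. Arc read 9.29, 9.48 and 9.33 in homozygous brains, against 9.62, 10.59 and 10.12 in wild-type brains (-0.74; limma adjusted p = 0.834), and Npas4 was at -0.75 (-1.32 to -0.17). Egr1, the brightest member, was at 0.09 (-0.24 to 0.42). Against heterozygous brains Arc and Npas4 differed by -0.33 and -0.28.

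The lowest values after Mysm1 among genes whose groups did not overlap included 3 genes of MHC class II, the antigen-presenting molecules of microglia and other phagocytes. None passed the test. H2-Ab1 read 5.65, 4.90 and 5.16 in homozygous brains, against 6.25, 6.16 and 6.24 in wild-type brains (-0.98, -1.38 to -0.58; limma adjusted p = 0.464). Cd74, the invariant chain, read 5.14, 5.15 and 5.28 against 6.02, 6.30 and 5.97 (-0.91, -1.25 to -0.56; limma adjusted p = 0.423). H2-Eb1 read 5.20, 5.04 and 5.57 against 5.85, 6.16 and 6.05 (-0.75, -1.11 to -0.40; limma adjusted p = 0.482). The separation of the groups for these genes follows from the way they were chosen and adds no support. Their levels were in the dimmer part of the range. Against the heterozygous brains of the same BeadChip the differences were -0.92, -0.84 and -0.47 (limma adjusted p = 0.537, 0.433 and 0.749). H2-Eb1 also passed the test in liver, where it was lower in homozygous animals. In an MHC class II list drawn up after seeing these values, 6 genes were measured, and H2-DMa, which helps load peptides, was at 0.11 (-0.16 to 0.39).

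Apoa2, an apolipoprotein made chiefly in liver, read 5.08, 5.29 and 5.33 in homozygous brains, against 6.04, 5.79 and 6.83 in wild-type brains (-0.99, -1.68 to -0.29; limma adjusted p = 0.906). Against heterozygous brains it differed by -0.98. It was 1 of 3 measured hepatocyte markers of 12 on the array, with a list median of -0.31. Apoa1 was at -0.31 (-0.62 to -0.0030), with groups that did not overlap, and Apoc3 at 0.02 (-0.36 to 0.40). Further genes at this end were Cpox (-0.68), Cavin1 (-0.64) and Pcdhac1 (-0.59). Adh1, an alcohol dehydrogenase, was not well above background on any homozygous array and was at least 1.17-fold lower there. At the upper end Slc23a3 was at 0.83 (0.09 to 1.58), Atp10d at 0.65 (0.37 to 0.92), Prrc2c at 0.62 and Kcnh7, a potassium channel, at 0.60 (0.29 to 0.91), followed by Prf1, Oga, Mfsd9 and Hyls1 between 0.56 and 0.59; without wild-type replicate 3 Hyls1 was at 0.35. Mical2 was not well above background on any wild-type array and was at least 1.23-fold higher in homozygous brain. Rpl3l, a ribosomal protein gene of striated muscle, read 6.63, 5.51 and 5.57 in homozygous brains, against a mean of 5.22 ± 0.27 in wild-type brains (SD, n = 3). Its change of 0.69 was 0.33 without homozygous replicate 1, the brain in which skeletal muscle genes were high. Adjusted p-values (limma) of the genes at both ends other than Mysm1 lay between 0.423 and 0.945. They were drawn from 1127 named genes with separate groups, 552 higher and 575 lower.

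The smallest adjusted p after Mysm1 belonged to a probe with no gene name, ILMN_1232900, chosen after its values were seen. It read 9.27, 9.36 and 9.53 in homozygous brains, against 8.37, 8.25 and 8.20 in wild-type brains (1.12, 0.81 to 1.42; limma adjusted p = 0.118). It averaged 9.04 ± 0.27 (SD, n = 3) in heterozygous brains, 0.35 below the homozygous ones.

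Regional transcripts had the widest bounds of the 3 kinds of list. The pooled SD within genotype exceeded 0.5 (log2) for 230 features (1.59%), and 56 of these were among the 105 measured genes of the region lists. Intervals lay inside 2-fold for 47 of 105 region-list genes (44.8%). The first principal component of the 6 arrays held 48.4% of the variance, with homozygous arrays at -18.5, 14.3 and -10.5 and wild-type arrays at 20.6, 11.8 and -17.8, so animals of both genotypes lay at either end.

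Striatal markers were high on 2 of 3 homozygous arrays and on 1 of 3 wild-type arrays. Drd1, the dopamine receptor of the direct pathway, read 10.26, 8.10 and 10.26 in homozygous brains, against 7.48, 8.57 and 10.32 in wild-type brains. Rgs9, a regulator of dopamine signalling, read 12.03, 9.54 and 12.09 against 9.10, 10.19 and 12.25. Ppp1r1b, or DARPP-32, followed the same animals at 12.69, 10.70 and 12.53 against 10.09, 11.09 and 12.82. The array means of the 17 measured genes were 0.85, -0.89 and 0.81 in homozygous brains, against -1.22, -0.60 and 1.05 in wild-type brains. The median change was 0.50 against wild type and 0.84 against heterozygous brains, yet in the comparison with wild type 0 of 17 intervals lay inside 2-fold, and the groups overlapped for all 17. Cholinergic markers, which include striatal interneurons, followed at 0.43, -0.79 and 0.54 against -0.45, -0.47 and 0.74.

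Thalamic and hippocampal markers were high in the other animals. Array means of 10 thalamic genes were -0.84, 0.64 and -0.51 in homozygous brains, against 0.76, 0.59 and -0.63 in wild-type brains, with a median change of -0.40. Prkcd, a kinase of thalamic relay neurons, read 7.27, 9.65 and 7.82 against 9.87, 9.65 and 7.33. Pmch, the melanin-concentrating hormone precursor of the lateral hypothalamus, had the largest spread of any gene detected on all 6 arrays; it read 5.39, 12.13 and 8.34 in homozygous brains, against 11.35, 11.35 and 5.82 in wild-type brains. Hcrt, the orexin precursor from the same area, read 4.53, 8.85 and 4.65 against 8.76, 8.56 and 4.67. Hippocampal C1ql2, of the dentate gyrus, read 7.80, 10.47 and 8.38 against 10.24, 9.90 and 7.18. The 21 measured hypothalamic genes did not follow one order as a list, with array means of -0.39, -0.01 and -0.04 in homozygous brains, against 0.60, 0.37 and -0.53 in wild-type brains. Each of these 4 genes split both genotypes, and their intervals ran beyond 4-fold in at least one direction.

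Markers of monoamine neurons included a pair that was high in a single brain. Tph2, the serotonin-synthesising enzyme of the raphe, read 5.41, 5.44 and 5.56 in homozygous brains, against 9.53, 5.68 and 5.27 in wild-type brains, and Slc6a4, the serotonin transporter, read 4.90, 4.99 and 4.56 against 7.76, 4.93 and 5.14. The change of -1.35 in Tph2 (-3.40 to 0.69) rested on that wild-type brain. Slc6a3, the dopamine transporter of midbrain neurons, read 5.13, 9.52 and 5.12 in homozygous brains, against 8.88, 8.30 and 4.74 in wild-type brains. Avp and Oxt, the hormones of magnocellular neurons, followed yet another order: Oxt read 9.63, 6.59 and 10.26 against 10.08, 9.60 and 8.71. Cortical markers varied less, with array means of -0.08 to 0.13 in homozygous and -0.20 to 0.15 in wild-type brains and 11 of 12 intervals inside 2-fold.

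**Figure D4:**
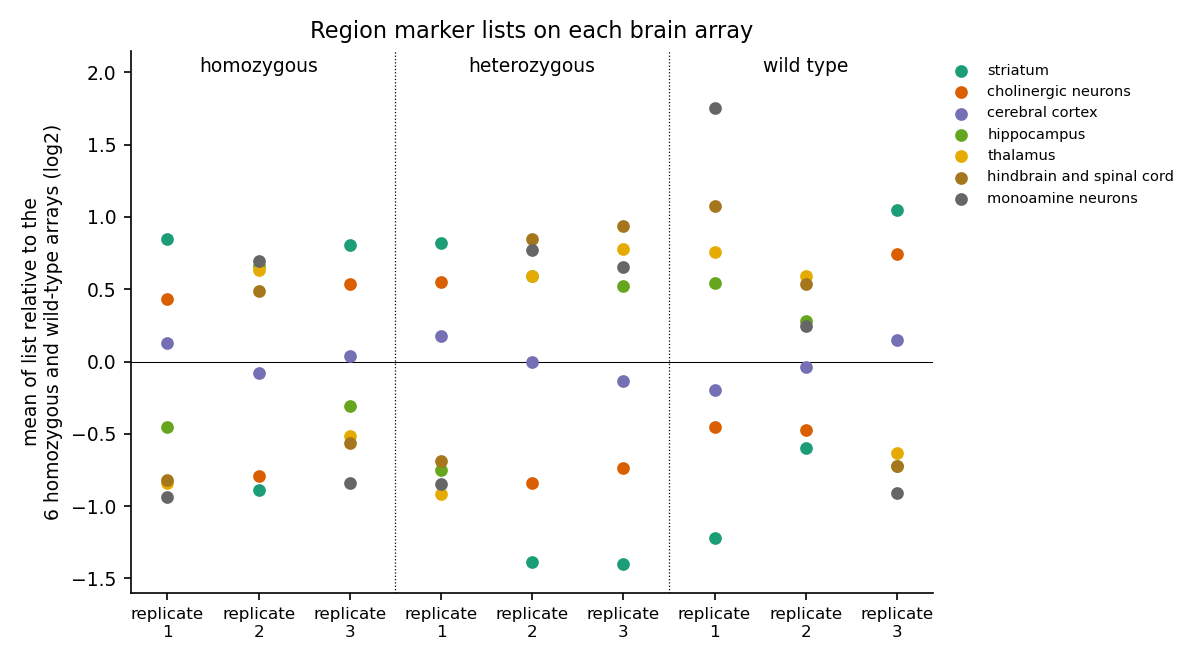
Mean of each region marker list on the 9 brain arrays (log2, relative to the mean of the homozygous and wild-type arrays), by genotype and replicate. Striatal and cholinergic lists are high where thalamic, hippocampal, hindbrain and monoamine lists are low, and each genotype holds animals of both kinds.

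Several markers of other regions were undetected. The granule cell marker Gabra6 and the Purkinje cell marker Pcp2 of the cerebellum met the detection criterion on 0 of the 9 brain arrays, as did Tbx21 and Eomes of olfactory bulb output neurons. None of the 8 pituitary and pineal genes on the array was measured. Among hindbrain genes Hoxa5 and Hoxb4 met the criterion on 0 arrays, whereas Irx3, expressed in midbrain and hindbrain, read 4.66, 7.68 and 5.83 in homozygous brains, against 8.22, 7.64 and 5.17 in wild-type brains. Apart from Irx3, the genes of this paragraph were chosen after their values were seen. Probes of clearly expressed genes failed the criterion too, as given for Snap25, so these bounds are on the probes. Zic1, a transcription factor on the cerebellar list with forebrain expression as well, read 7.79, 8.19 and 8.10 against 8.62, 8.63 and 8.46 (-0.54, -0.81 to -0.28; limma adjusted p = 0.547), and differed by -0.13 from heterozygous brains.

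Adding the array mean of the striatal list to the fit as a covariate (a setting added once the values were known) narrowed the bounds on regional genes. Because that level was measured on these same arrays and holds the list's own members, the values for striatum describe the fit and are no test. The median half-width went down to 0.31 with the covariate for thalamus, against 1.36 without it, and to 0.25 for hippocampus, against 0.95. For neurons it was 0.19 with the covariate, against 0.23 without it, and for red cells 1.84 against 1.73. Intervals inside 2-fold numbered 14335 features (99.4%), against 14108 without the covariate. An unadjusted p below 0.05 was reached by 1078 features (7.47%) with it, against 757 (5.25%) without it. This count was 1446 (10%) with the first principal component of the deviations within genotype as covariate, also added once values were known. Array weights gave 1225 (8.49%). What raised these counts was not tested. With the striatal covariate the thalamic median was -0.11 and the hindbrain median -0.22. Mysm1 was again the only feature past the threshold in that fit (-1.95, limma adjusted p = 0.000107).

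**Figure D5:**
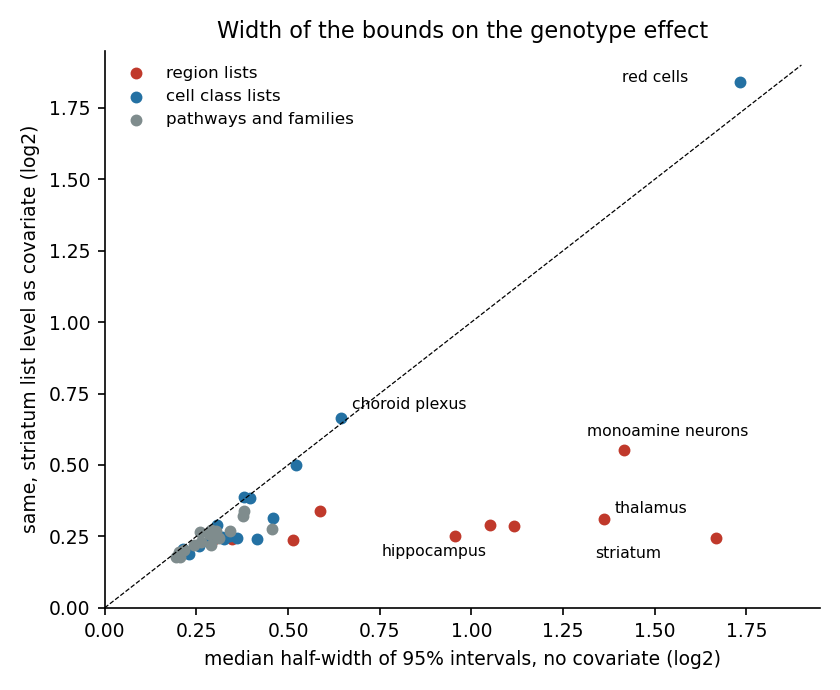
Median half-width of the 95% intervals (log2) of each gene list without (x axis) and with (y axis) the striatal list level as a covariate; the dashed line marks equality. Thalamus and hippocampus fall far below the line at 0.31 and 0.25, while red cells and choroid plexus stay near it.

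Several skeletal muscle genes were high in 1 homozygous brain. Myl1, a myosin light chain, read 10.40, 6.00 and 5.54 in homozygous brains, against 6.00, 6.05 and 6.09 in wild-type brains. Tnni2, a fast troponin, read 9.20, 4.93 and 5.27 against 4.74, 5.14 and 5.48, and Tnnc2 read 8.75, 4.66 and 4.63 against 5.03, 4.48 and 4.66. The other two homozygous brains were at the wild-type level for these genes. Atp2a1, the calcium pump of fast muscle, read 10.08, 7.06 and 5.54 against 7.40, 6.99 and 5.17. For Tnni2, Tnnc2 and Myl1 the changes over all arrays were 1.35, 1.29 and 1.27 (limma adjusted p = 0.978, 0.982 and 0.985). These changes therefore rested on homozygous replicate 1, without which Tnni2 and Tnnc2 were at -0.02 and -0.08. The list of 16 muscle genes, 11 of them measured, was drawn up after these values were seen.

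The same genotype comparison was made in liver and set beside the brain. In liver, 168 of 11745 features (1.43%) passed the test between homozygous and wild type, and 105 of these besides Mysm1 were measured in brain. In brain, 0 of the 105 passed in limma and 7 reached an unadjusted p below 0.05, as 5.25% of all brain features did. Their intervals lay inside 2-fold for 100 (95.2%), against 97.8% of all brain features. The median absolute change of the 105 was 0.08 in brain and 0.85 in liver, beside 0.09 over all brain features. The largest of the 105 brain changes was that of H2-Eb1, at -0.75 (-1.11 to -0.40) in brain and -0.99 in liver. Srebf1, a regulator of lipid synthesis, was at -0.41 (-0.75 to -0.06) in brain and -1.21 in liver, and Gbp2, an interferon-induced GTPase, at -0.25 (-0.48 to -0.02) and -0.81; both were chosen after their values were seen. Samd9l, an interferon-induced gene, changed by -0.04 in brain (-0.23 to 0.16). Exosc2, an RNA exosome subunit, was at -0.15 in brain (-0.45 to 0.15) and 1.82 in liver. Cyp7b1, an oxysterol hydroxylase, was at -0.06 in brain (-0.40 to 0.28) and 2.23 in liver. The test of the tissue difference described below did not pass for Samd9l, Exosc2 or Cyp7b1 (limma adjusted p = 0.302, 0.663 and 0.737). It takes 1 spread per feature from all 27 arrays. In a fit of that kind the fall of Mysm1 in brain did not pass either, so not passing does not show equal effects. Homozygous livers shared BeadChip 2 with wild-type brains, and the wild-type livers lay on another, so genotype and BeadChip cannot be told apart in liver either. The sex of the animals is not given, and sex markers were not examined in liver. The 168 liver calls therefore cannot be put down to the allele alone.

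The difference between the tissues was tested itself, in 1 fit of all 27 arrays. It passed for 26 of 17374 features (0.15%), 13 with a higher and 13 with a lower effect in brain. Of the 26, 25 were also called in liver and 4 belonged to genes measured in brain. Among these 4, Ppl was detected on 0 homozygous and 0 wild-type brain arrays by the probe used in the joint fit. On the scale of that joint fit Susd4, a complement regulator, stood at 9.96 ± 0.09 in homozygous and 10.02 ± 0.05 in wild-type brains (SD, n = 3 each). Its brain effect was -0.05 where its liver effect was 1.76 in the joint fit, a difference of -1.81 ± 0.35 (SE; limma adjusted p = 0.0305). The count depended on the brain arrays: it was 17 without wild-type brain replicate 1 and 16 without any one of the other 5 brains, and 363 with array weights. Most of the others, such as the sulfotransferase Sult2a2 (limma adjusted p = 4.98e-07) and Cyp4a12a (limma adjusted p = 1.18e-06), were not detected on any brain array of either genotype, so their brain effect has no measured level behind it.

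Sex and substrain markers did not separate the brains. Xist, the RNA of the inactive X chromosome, read 8.90, 8.82 and 9.50 in homozygous brains, against 8.83, 9.12 and 9.06 in wild-type brains. The Y-linked Kdm5d was not detected on any of these arrays, and Eif2s3y was detected on 1 homozygous array. Of 4 Uty probes, ILMN_2907351 was detected on all 6 arrays, at 4.95, 5.20 and 4.98 against 5.28, 5.09 and 5.34. Nnt, whose deletion marks a C57BL/6 substrain, had 1 of 8 probes that met the detection rule, ILMN_2583813, at 5.24, 4.87 and 5.41 in homozygous brains, against 4.68, 4.93 and 4.76 in wild-type brains (0.38).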

How the data were processed

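The deposited scanner table gave, for each of 45281 probes and per the file headers, mean intensity on a linear scale, a count of beads and a detection p-value. The submitters' processing notes name BeadStudio and limma without versions. Column medians differed, so the deposited intensity was not normalised between arrays. Each detection p-value the authors deposited was a multiple of 1/936. Bead numbers, a deposited count, had medians of 44 to 45 on the 9 brain arrays. A second deposited table held intensity normalised between arrays, by steps that were not stated, and served as an alternative.

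Signals were corrected with limma's neqc (limma 3.58.1, R 4.3.3; negative controls inferred from detection p, offset 16), quantile-normalised over the 9 brain arrays and taken to log2. Probes with detection p below 0.05 on at least 3 arrays were kept (46.1%). The platform annotation gave 34885 probes 1 symbol, 18 several and 10378 none; unnamed probes were tested by identifier. lmFit and eBayes ran over the 3 genotypes, two-sided, with Benjamini-Hochberg adjustment over all features. Intervals are unadjusted 95% intervals per feature. The scripts were tested on simulated data. The number of arrays limits precision.

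Members and gene lists were chosen with earlier results of these data known. Named genes are Mysm1; the 10 highest and 10 lowest changes among genes with separate groups detected on all 3 arrays of the higher group; per list the 3 brightest and 2 most changed; the 15 with the largest spread within genotype; 8 liver genes; 8 of the tissue difference; and the sex genes and Nnt. Others named are said to be chosen after their values were seen. No genome build is given, so no coordinates or probe sequences are printed.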

Additional observations from a re-analysis of the deposited data

Results flagged for a closer look

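The homozygous effect differed between brain and liver by a test of the difference itself for 26 of 17374 features (limma, Benjamini-Hochberg adjusted p below 0.05), and 422 features reached an unadjusted p below 0.05. Susd4, detected on every homozygous and wild-type array of both tissues, was among the 26, with values given above. Most of the 26 were not detected on any brain array of either genotype, so for them the test largely repeats the liver comparison. Of the 26, 25 were also called in liver.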

How the results depend on the processing

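Mysm1 passed the test in every setting run except the fit of all 27 arrays, where 0 features passed in limma (71 at an unadjusted p below 0.05) and Mysm1 was at -1.65 (-2.45 to -0.85; limma adjusted p = 1). The cause was not tested. A second feature, the unnamed probe ILMN_1232900, passed beside Mysm1 (2 features) without background correction and with normexp at an offset of 50. The size of the Mysm1 change varied, at -1.13 in the processed table and -1.38 for the mean of its kept probes. Leaving out 1 array at a time gave 1 feature each time, Mysm1 at -1.97 to -1.89, and 13853 to 14075 features inside 2-fold. Without the detection filter, which tests more probes, 29119 were inside 2-fold (98.9%). That count includes undetected probes, whose change has no measured level behind it. The brain minus liver count of 26 was 16 with detection on at least 9 of 27 arrays, 363 with array weights and 114 in a fit of the 18 liver and brain arrays, and 16 to 26 with 1 array left out; the cause was not tested. Replicate numbers were shared by the groups. Same-numbered arrays correlated at -0.37, 0.26 and 0.21 in their deviations, and differently numbered ones at -0.57 to 0.51. With 3 arrays a group, these values cannot show whether same-numbered brains were paired. With the replicate block Mysm1 was at -1.93 (limma adjusted p = 0.00185) and the 1 call was the same. In that setting 14127 features were inside 2-fold and 23 passed the tissue difference. Over 45 lists, 818 of 854 list medians under an alternative moved by less than the spread between arrays and 36 by more, and 774 kept their sign. The small number of arrays, with each genotype on 1 BeadChip, limits every value.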
